A study of Mus musculus with 75 samples.

Results

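The expressed lincRNA genes of the lung were followed in BLEO-IPF mice. A lincRNA is a long intergenic non-coding RNA. A gene was taken if its Ensembl 96 biotype was lincRNA and its mean over all 75 mice was at least 1 CPM (counts-per-million, scaled to the total counts of each library), with H19 left out. Beside the annotation, they were thus chosen by their mean level over CTRL and BLEO-IPF mice together, and not by a difference between groups. This selected 236 of the 5854 lincRNA genes in a count table of 55536 genes, and 5617 lincRNA genes lay below the threshold. The data were bulk RNA sequencing of the inferior lobe of the right lung, 1 library per mouse, from male C57BL/6JRj mice. The mice were 12 to 14 weeks old at the time of bleomycin, before sampling. The BLEO-IPF group was given bleomycin, a cytotoxic drug that damages lung epithelium, once into the trachea, and only animals that had lost 5 to 17% of body weight by day 6 were randomized. The control group (CTRL) held 10 mice, and BLEO-IPF mice were sampled weekly, 10 of them on day 7, 12 each on days 14 to 35, and 7 on day 42. The labels name the controls saline, whereas the protocol describes them as untreated. The day on which CTRL mice were sampled is not given in the sources used here. Mice of later days were also older, so age and time after bleomycin cannot be told apart. Lungs had been lavaged before sampling, so cells removed by lavage were not measured.

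Long non-coding RNAs are transcribed and often spliced and polyadenylated like messenger RNAs, but most are not known to encode a protein. Some act as RNA, such as Neat1, the scaffold of the nuclear paraspeckle. Others are known mainly for what lies within them, such as the hosts of microRNAs and of small nucleolar RNAs (snoRNAs), and others start next to the promoter of a coding gene and are transcribed away from it. The class was assigned by annotation and not by these data. RefSeq, matched by symbol, listed 149 of the 236 genes as lncRNA, 12 as protein-coding (among them Gm7932, Zfp469, Tmem250-ps and 1810058I24Rik) and 2 as transcribed pseudogenes, and 73 were not matched. Of the names, 107 were Gm numbers, 83 were Rik clone names and 5 were clone accessions.

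In RefSeq, at least 11 of the genes held at least 1 mature microRNA inside their body on the same strand, at least 45 microRNAs in all. These are minimum counts, because Carmn, a gene of the microRNA host list, was not among the genes counted. Some of those of 4 hosts are shown, because the library measured the host, whereas the mature sequence is what the host is known for. Capitals mark the seed, bases 2 to 8. Mir17hg is the host of the oncogenic miR-17 cluster, in which miR-17-5p and miR-20a-5p share a seed, as do miR-19a-3p and miR-19b-3p. The 5p arms of the let-7 microRNAs of 6720427I07Rik share a seed. Mir142hg hosts a microRNA of blood cells, and E130102H24Rik holds miR-101a.
miR-17-5p: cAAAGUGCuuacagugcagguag
miR-20a-5p: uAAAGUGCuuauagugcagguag
miR-18a-5p: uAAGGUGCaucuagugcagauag
miR-19a-3p: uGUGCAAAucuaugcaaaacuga
miR-19b-3p: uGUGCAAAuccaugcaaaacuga
miR-92a-3p: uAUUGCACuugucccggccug
let-7a-5p: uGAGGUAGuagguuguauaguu
let-7d-5p: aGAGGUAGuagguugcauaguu
let-7f-5p: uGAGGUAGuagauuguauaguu
miR-142a-5p: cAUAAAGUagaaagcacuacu
miR-142a-3p: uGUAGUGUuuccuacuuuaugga
miR-101a-3p: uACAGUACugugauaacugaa

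RefSeq promoters of GRCm38.p6, the build of the files, from 250 bases before to 50 bases after the RefSeq start, which can differ from that in Ensembl, were found for 138 of the 236 genes. Those of 5 genes are printed: 3300005D01Rik and Gm7932 with large increases, Gm15889 with a large decrease, and Gm17501 and Gm20554, which start close to the coding genes Ccn1 and Irx2 on the other strand. Capitals mark matches on either strand to the AP-1 site TGANTCA, the TEAD site GGAATG, the E-box CACGTG, the CCAAT box CCAAT and the TATA box TATAAA. In the Gm17501 window the start of Ccn1 lies at base 159, 92 bases from that of Gm17501, and a TATAAA match on the strand of Ccn1 begins at base 179. Gm20554 and Irx2 start 256 bases apart. Over the 27025 promoters of the table, TGANTCA stood in 7.93%, GGAATG in 14.6%, CACGTG in 7.24%, CCAAT in 37.9% and TATAAA in 14.2%. Over the 138 lincRNA promoters the shares were 7.97%, 19.6%, 12.3%, 37.7% and 13.8%. The shares are descriptions, and binding was not measured.
3300005D01Rik, chr17:5798407-5798706, plus strand: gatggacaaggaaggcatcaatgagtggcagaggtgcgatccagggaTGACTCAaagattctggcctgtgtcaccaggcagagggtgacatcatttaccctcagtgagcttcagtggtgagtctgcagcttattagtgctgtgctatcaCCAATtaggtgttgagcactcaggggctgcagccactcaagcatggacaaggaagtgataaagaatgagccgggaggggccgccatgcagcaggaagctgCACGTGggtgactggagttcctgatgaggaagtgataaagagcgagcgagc
Gm7932, chr6:48860079-48860378, plus strand: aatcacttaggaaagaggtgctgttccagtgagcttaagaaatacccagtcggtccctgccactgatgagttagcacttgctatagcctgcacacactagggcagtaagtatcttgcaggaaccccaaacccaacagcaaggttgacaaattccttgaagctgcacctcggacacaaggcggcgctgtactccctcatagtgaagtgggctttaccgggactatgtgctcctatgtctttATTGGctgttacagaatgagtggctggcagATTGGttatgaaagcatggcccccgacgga
Gm15889, chr8:94377625-94377924, plus strand: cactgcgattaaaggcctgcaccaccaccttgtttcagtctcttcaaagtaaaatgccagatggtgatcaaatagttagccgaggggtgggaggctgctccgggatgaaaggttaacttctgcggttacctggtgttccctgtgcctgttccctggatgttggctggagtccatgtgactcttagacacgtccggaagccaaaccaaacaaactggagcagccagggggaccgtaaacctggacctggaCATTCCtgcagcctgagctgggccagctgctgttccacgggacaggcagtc
Gm17501, chr3:145649827-145650126, plus strand: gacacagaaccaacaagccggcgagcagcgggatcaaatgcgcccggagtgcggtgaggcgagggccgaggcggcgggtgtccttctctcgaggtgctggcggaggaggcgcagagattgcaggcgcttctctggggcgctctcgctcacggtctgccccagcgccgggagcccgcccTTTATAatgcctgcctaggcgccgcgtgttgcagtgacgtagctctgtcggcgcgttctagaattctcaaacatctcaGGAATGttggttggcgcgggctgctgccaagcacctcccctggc
Gm20554, chr13:72628515-72628814, minus strand: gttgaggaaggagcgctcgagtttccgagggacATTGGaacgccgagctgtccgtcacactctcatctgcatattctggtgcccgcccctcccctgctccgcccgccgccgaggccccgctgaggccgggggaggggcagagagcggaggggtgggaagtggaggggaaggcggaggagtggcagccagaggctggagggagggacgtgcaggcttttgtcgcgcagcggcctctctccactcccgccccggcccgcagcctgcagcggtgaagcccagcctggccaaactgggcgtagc

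Most of these genes were expressed at a low level, and a few made up most of their counts. The mean ranged from 1.01 to 2590 CPM with a median of 2.697 CPM, 86 genes lay under 2 CPM, 28 at 10 CPM or more and 6 at 100 CPM or more. Per kb of exon, the median level was 1.23 CPM, against 6.45 CPM per kb for the protein-coding genes above the same threshold. On that scale Gm42418 had 1418 CPM per kb, Malat1 210, Neat1 62.8, Bc1 38.5, AW112010 38.3, AU020206 36.9, 1700020I14Rik 30.1, Tmem250-ps 27.3, 2900097C17Rik 21.3 and Gm26917 17.2. Bc1 is a short cytoplasmic RNA of neurons made by RNA polymerase III. Gm42418 (chr17:39846958-39848788, plus strand) overlaps a ribosomal RNA gene model on the opposite strand. It varied widely within groups, with a lowest, median and highest level of 1157, 2242 and 4321 CPM in CTRL mice and of 1402, 2734 and 5208 CPM on day 14, and it was not called on any day.

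The 236 genes together took a median of 0.689% of a library's counts in CTRL mice and of 0.592%, 0.701% and 0.751% on days 7, 14 and 42. Gm42418 and its neighbour Gm26917 together held a median of 0.228% in CTRL mice, and Malat1 and Neat1 together 0.279%. Without these 4 genes, the other 232 held a lowest, median and highest share of 0.160%, 0.181% and 0.194% in CTRL mice, 0.119%, 0.145% and 0.162% on day 14 and 0.164%, 0.170% and 0.185% on day 42. The shares on day 14 overlapped with those of CTRL mice only at the edge, and those on day 42 lay inside the range of CTRL mice.

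Total counts per library ranged from 9240291 to 14665247, so differences among the lowest genes rest on few reads. Cell type markers moved with the groups. On day 14, 5 of 6 AT2 cell markers had fallen (summed level 21936 to 26795 CPM in CTRL mice and 5906 to 22848 CPM on day 14), as had 6 of 6 ciliated cell markers (502 to 665 and 128 to 359 CPM), 5 of 6 endothelial markers (3115 to 4003 and 1578 to 3225 CPM) and 5 of 5 B cell markers (113 to 246 and 19.7 to 126 CPM). Risen were 6 of 6 markers of monocyte-derived macrophages (209.7 to 319 and 1315 to 8039 CPM), 5 of 5 of cycling cells (26.6 to 59.7 and 112 to 308 CPM) and 4 of 6 of fibroblasts, with 1 fallen (1405 to 1993 and 3772 to 10286 CPM). In bulk tissue, fewer cells of a type and less RNA per cell cannot be told apart, and the part of these markers in the results was not tested. One library stood apart. Skeletal muscle markers summed to 1502 CPM in BLEO-IPF day 28 mouse 10 and to at most 15.5 CPM in the other 74 mice.

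The daily comparisons asked how far the lung of BLEO-IPF mice differed from that of CTRL mice over the course of the model. Each day was compared by edgeR's quasi-likelihood F test, with Benjamini-Hochberg adjustment over all 16221 genes tested and a threshold of 0.05, and all 236 lincRNA genes were tested. A gene past this threshold is said to have risen or fallen. On day 7, 18 lincRNA genes rose and 65 fell, or 7.63% and 27.5%, where 24.8% of all genes rose and 21.0% fell. On day 14, 34 rose and 107 fell, or 14.4% and 45.3%, beside 32.4% and 29.9% of all genes. Day 21 gave 30 that rose and 75 that fell, or 12.7% and 31.8%, beside 28.3% and 25.8% of all genes. On day 28 there were 28 and 38, or 11.9% and 16.1%, beside 24.1% and 19.2% of all genes. Without mouse 10 of that day there were 30 and 41. On day 35, 15 rose and 25 fell, or 6.36% and 10.6%, beside 16.9% and 13.1% of all genes. For day 42 the counts were 16 and 19, or 6.78% and 8.05%, beside 13.7% and 11.0%. The share that fell thus lay under that of all genes on days 28, 35 and 42. The comparisons share their CTRL mice. The day 42 count of genes that fell depended on the fit, with 9 without the filter on low counts and 35 with only the 2 groups compared.

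**Figure D1:**
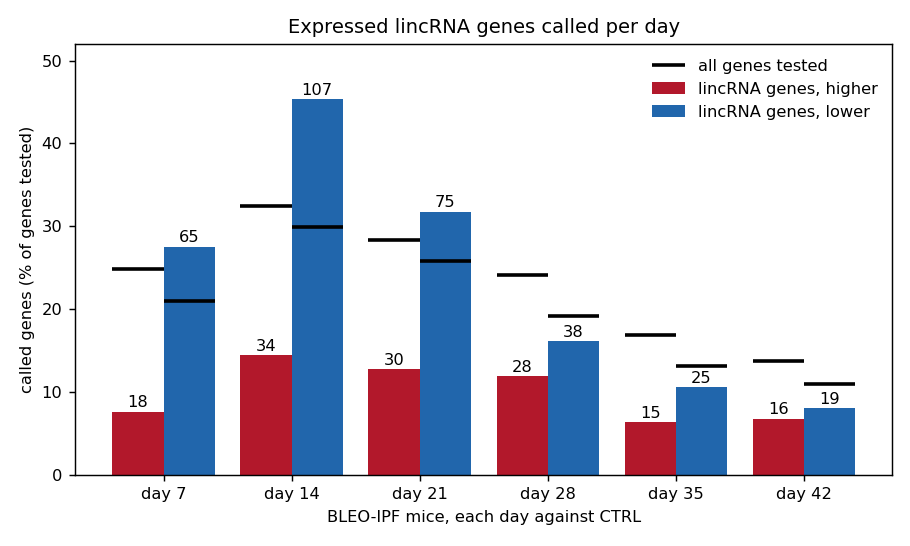
Bars give the percentage of the 236 expressed lincRNA genes that were higher or lower than in CTRL mice on each day (adjusted p under 0.05), and lines give the same percentage over all 16221 genes tested. The share that fell was largest on day 14, at 107 genes, and the share that rose lay under that of all genes on each of the 6 days. The share that fell lay under that of all genes on days 28, 35 and 42.

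The medians moved with the counts. The median log2 fold change of the 236 genes was -0.23, -0.29, -0.18, -0.06, -0.05 and -0.04 from day 7 to day 42, while that of all genes tested stayed within 0.02 of 0. On day 14 the quartiles were -0.65 and 0.15, and single genes spanned -3.53 to 3.85. In 14 lincRNA genes every day 14 mouse lay below every CTRL mouse and in 6 every one lay above, beside 6.18% and 9.56% of all genes tested. On day 42 there were 3 and 2 such genes, beside 3.38% and 4.25% of all genes.

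**Figure D2:**
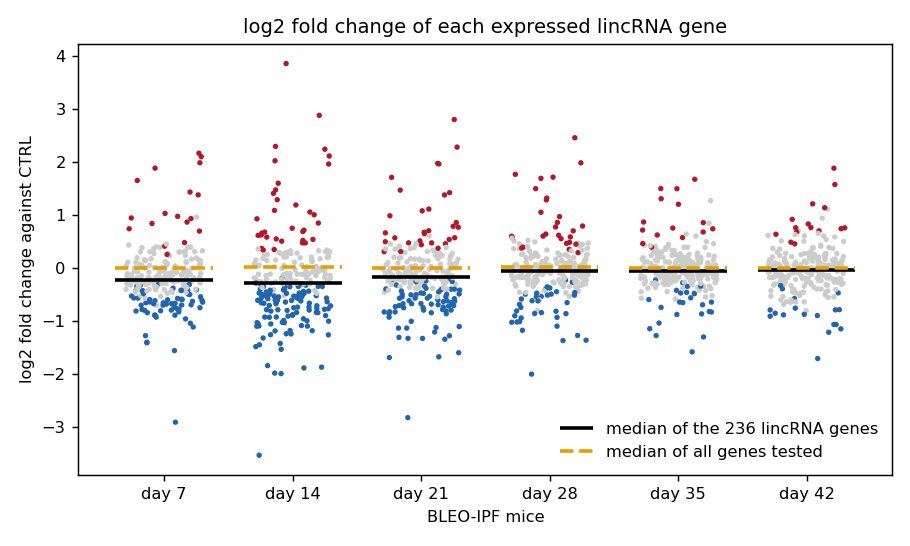
Each point is 1 of the 236 expressed lincRNA genes, placed by its log2 fold change against CTRL mice on that day, with genes past the threshold in color. The median of the lincRNA genes was lowest on day 14, at -0.29, and stood at -0.04 on day 42.

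Other annotated classes of non-coding genes above the same threshold also had more genes that fell than rose on day 14. Of 188 antisense genes 28 rose and 69 fell (median log2 fold change -0.19), of 167 processed transcripts 31 and 72 (-0.18), of 138 genes annotated as TEC, a class awaiting experimental support, 10 and 54 (-0.37), and of 45 lncRNAs at bidirectional promoters 7 and 16 (-0.19). Of 13920 protein-coding genes 4797 rose and 4233 fell (0.02). No test between classes was made. Among lincRNA genes with a single exon block, 3 of 51 rose and 23 fell, and among those with more, 31 of 185 rose and 84 fell, each with a median of -0.29. By level, 38 of 86 genes under 2 CPM fell, and 17 of 28 at 10 CPM or more.

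The nuclear body RNAs Neat1 and Malat1 were among the most abundant genes. Neat1 (chr19:5824708-5845478, minus strand), on which paraspeckles assemble, had a lowest, median and highest level of 1048, 1369 and 1787 CPM in CTRL mice, 626, 1031 and 1291 CPM on day 7, 293, 955 and 2095 CPM on day 14 and 1122, 1455 and 1772 CPM on day 42. The groups overlapped, and the day 14 mice spread the most. Its log2 fold changes on days 7 and 14 were -0.42 ± 0.17 and -0.40 ± 0.16 (SE), with edgeR adjusted p-values of 0.033 and 0.025, and they lay between -0.01 and 0.06 on the later days. Both calls depended on the fit. The day 7 call was lost without the filter on low counts (adjusted p = 0.060) and the day 14 call with only the 2 groups compared (adjusted p = 0.081). Without day 14 mouse 8, which had the lowest Neat1 of all mice, the log2 fold change was -0.31 with an adjusted p of 0.060. Malat1, an abundant RNA of nuclear speckles, had -0.38 ± 0.19 and -0.29 ± 0.18 on these days, with adjusted p-values of 0.095 and 0.16, neither past the threshold. Of 18 paraspeckle proteins 5 rose and 4 fell on day 14, or 27.8% and 22.2%, both under the 32.4% and 29.9% of all genes.

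Of the 5 snoRNA hosts, Snhg6 and Snhg18 rose on day 14, when 32.4% of all genes rose. With so few hosts, this is a result about single genes and not about the class. Snhg6 (chr1:9941959-9944118, minus strand) had 3.80, 5.13 and 7.47 CPM in CTRL mice (lowest, median and highest) and 6.34, 8.95 and 21.996 CPM on day 14. The groups overlapped at their edges. Its log2 fold changes on days 7, 14, 21 and 42 were 0.69 ± 0.18, 1.05 ± 0.17, 0.66 ± 0.17 and 0.21 ± 0.19 (adjusted p = 1.94e-07 for day 14 and 0.46 for day 42). Its exons overlap those of Mcmdc2 on the opposite strand. Snhg18 (chr15:32240565-32244662, minus strand) had 11.9, 13.3 and 14.8 CPM in CTRL mice and 13.6, 18.7 and 28.044 CPM on day 14, with 0.54 ± 0.09 on day 14 (adjusted p = 1.66e-06) and 0.14 ± 0.11 on day 42. It starts 148 bases from Sema5a, a semaphorin gene transcribed the other way, which had 0.52 ± 0.14 on day 14. Snhg12, Snhg20 and Epb41l4aos were not called against CTRL mice on any day, with values on day 14 of 0.23, -0.12 and 0.15. From day 14 to day 42, Snhg6 and Snhg18 changed by -0.84 ± 0.19 and -0.39 ± 0.11 (adjusted p = 3.44e-04 and 0.0027).

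Of the 5 listed microRNA hosts, only Ftx fell on day 14, when 29.9% of all genes fell. Mir17hg had 2.77, 4.16 and 7.51 CPM in CTRL mice and 2.19, 3.93 and 4.95 CPM on day 14. The ranges overlapped, and its log2 fold changes of -0.22 on day 14 and 0.11 on day 35 were the extremes of 6 days without a call. Mir142hg was not called either, with -0.08 on day 7 and 0.37 on day 28. Hosts outside the list are given for the sequences printed above, chosen after their values were seen. The let-7 host 6720427I07Rik had -0.31 ± 0.15 on day 14 (adjusted p = 0.064). The miR-101a host E130102H24Rik had 2.08, 3.10 and 5.22 CPM in CTRL mice and 1.60, 2.13 and 3.38 CPM on day 14, and fell (-0.68 ± 0.18, adjusted p = 7.31e-04). Mature microRNAs were not measured in these libraries.

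Ftx and Jpx lie at the X inactivation centre, known for dosage compensation in females, and were measured here in males. Ftx (chrX:103560907-103623790, minus strand), which also hosts microRNAs, had 7.08, 10.004 and 12.2 CPM in CTRL mice and 4.55, 6.63 and 8.14 CPM on day 14. It fell on days 7, 14, 21 and 42, with -0.58 ± 0.11 on day 14 (adjusted p = 5.23e-06) and -0.33 ± 0.13 on day 42 (adjusted p = 0.045), a call that was lost without the filter on low counts (adjusted p = 0.12). Jpx fell on day 14 (-0.46 ± 0.17, adjusted p = 0.018) and was higher on day 42 than on day 14 by 0.61 ± 0.19. Meg3, the maternally expressed RNA of an imprinted domain, had 7.07, 10.2 and 12.7 CPM in CTRL mice and 8.49, 13.8 and 37.1 CPM on day 28. It rose on days 21 and 28, by 0.53 ± 0.21 and 0.77 ± 0.21 on the log2 scale (adjusted p = 0.023 and 0.0017), and the second value was 0.74 without mouse 10. Exons of Meg3 and of Ftx overlap other gene models.

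Bvht and Carmn, known from heart and smooth muscle, are on chromosome 18. Bvht fell on days 7 and 14 (-0.31 ± 0.12 and -0.35 ± 0.11, adjusted p = 0.023 and 0.0050) and had 0.07 ± 0.13 on day 42. Its day 7 call was lost without the filter on low counts (adjusted p = 0.053). Carmn, a smooth muscle RNA, had 1.03, 2.29 and 3.80 CPM in CTRL mice and 0.858, 1.21 and 2.12 CPM on day 42. It had -0.19 ± 0.25 on day 14 (adjusted p = 0.52) and fell on day 42 (-0.79 ± 0.30, adjusted p = 0.042), a call lost without the filter on low counts (adjusted p = 0.093). Of 5 smooth muscle markers 2 had also fallen on day 42, and the summed level was 569 to 784 CPM in CTRL mice and 521 to 721 CPM on day 42.

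Of the 3 listed RNAs tied to DNA damage, 1 rose and 2 fell on day 14. These were 33.3% and 66.7%, beside 32.4% and 29.9% of all genes. Those that fell were Neat1, given above, and 2900097C17Rik. Pvt1 rose on each of the 6 days. Pvt1 (chr15:62037986-62378096, plus strand) lies downstream of the proto-oncogene Myc and is a known p53 target. It had 0.954, 1.92 and 2.45 CPM in CTRL mice and 2.66, 3.83 and 5.54 CPM on day 14, and every day 14 mouse lay above every CTRL mouse. On days 7, 14, 28 and 42 its log2 fold change was 0.74 ± 0.19, 1.08 ± 0.18, 0.97 ± 0.19 and 0.76 ± 0.21 (adjusted p = 7.63e-07 for day 14 and 0.0056 for day 42). The median of Myc was 6.75 CPM in CTRL mice and 18.7 CPM on day 14 (1.99 ± 0.26), and its value on day 42 was 0.60 ± 0.30 (adjusted p = 0.13). The gene 2900097C17Rik, known as Norad, an RNA induced by DNA damage that binds Pumilio proteins, fell by a small amount on each of the 6 days. It had 111, 122 and 131 CPM in CTRL mice and 87.2, 97.1 and 109 CPM on day 14, without overlap. The log2 fold change was -0.30 ± 0.05 on day 14 (adjusted p = 9.46e-08) and -0.15 ± 0.05 on day 42 (adjusted p = 0.028), where the call was lost without the filter on low counts (adjusted p = 0.11).

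Of 24 protein-coding and other p53 targets listed, 16 rose and 3 fell on day 14 (66.7% and 12.5%, beside 32.4% and 29.9% of all genes), and 13 rose and 2 fell on day 42 (54.2% and 8.33%, beside 13.7% and 11.0%). Cdkn1a, which encodes the cell cycle inhibitor p21, had 3.15 ± 0.15 on day 14. Its neighbour Trp53cor1 is a lincRNA that lay just below the level threshold. It had 0.159, 0.341 and 0.614 CPM in CTRL mice and 0.504, 1.26 and 1.83 CPM on day 14, with 1.78 ± 0.23 on day 14 and 1.16 ± 0.27 on day 42.

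Of 6 genes of the immune cell list, Gm14005 and Gm26917 rose on day 14, or 33.3%, near the 32.4% of all genes that rose. Gm14005 (chr2:128178319-128502765, minus strand), known as Morrbid, is a myeloid RNA that represses the neighbouring cell death gene Bcl2l11. It had 2.86, 3.38 and 4.34 CPM in CTRL mice and 4.59, 6.08 and 13.013 CPM on day 14, without overlap. Log2 fold changes of 0.48 ± 0.16, 1.00 ± 0.15 and 0.75 ± 0.17 were found on days 7, 14 and 42 (adjusted p = 3.84e-08 for day 14 and 6.08e-04 for day 42). Bcl2l11 was lower on days 7 and 21 (-0.28 ± 0.07 and -0.19 ± 0.07, adjusted p = 7.98e-04 and 0.011), and had -0.13 ± 0.07 and -0.04 ± 0.08 on days 14 and 42 (adjusted p = 0.092 and 0.76). Gm26917 rose on days 7, 14 and 21, with 0.50 ± 0.17 on day 14 (adjusted p = 0.0074). Its day 7 call was lost under DESeq2 (adjusted p = 0.050) and without the filter on low counts (0.088), and its day 21 call with only the 2 groups compared (0.055). AW112010, an interferon-induced RNA of immune cells, had 27.2, 31.6 and 42.5 CPM in CTRL mice and 14.8, 31.3 and 43.2 CPM on day 14, and was not called on any day. Mir142hg, Mirt1 and Lncpint were not called either.

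3300005D01Rik and 1200007C13Rik had the largest increases on day 14. Both were under 1 CPM in every CTRL mouse and so could meet the level threshold only through BLEO-IPF mice, which in part fixes their direction. 3300005D01Rik (chr17:5798657-5803240, plus strand) had 0.0795, 0.191 and 0.557 CPM in CTRL mice, or 1 to 6 counts per library, and 1.15, 2.39 and 8.65 CPM on day 14, or 14 to 103 counts. Every day 14 mouse lay above every CTRL mouse. The increase on day 14 was 3.85 ± 0.53 on the log2 scale, or 14.4-fold (adjusted p = 5.25e-09), and on days 7, 28 and 42 the values were 2.10 ± 0.58, 2.45 ± 0.56 and 1.11 ± 0.68, the last with an adjusted p of 0.23. Its printed promoter holds an AP-1 match at base 48, a CCAAT match at base 150 and an E-box match at base 250, and binding was not measured. 1200007C13Rik (chr2:167827693-167833646, minus strand) had 0, 0.401 and 0.711 CPM in CTRL mice, 0.647, 2.29 and 9.07 CPM on day 14 and 0.298, 0.772 and 0.866 CPM on day 42. It rose on days 7 to 28 and had 2.87 ± 0.44 on day 14 (adjusted p = 5.58e-08) and 0.77 ± 0.54 on day 42 (adjusted p = 0.31). On day 7 it had 2.16 ± 0.46, and 1.76 without the mouse with the highest value.

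Zfp469, a lincRNA in Ensembl 96 and protein-coding in RefSeq, is known from human connective tissue disease of the cornea. It had 1.24, 1.97 and 2.25 CPM in CTRL mice, 1.72, 5.45 and 15.5 CPM on day 14 and 0.858, 1.99 and 2.48 CPM on day 42. The day 14 mice spread from within the range of CTRL mice to well above it. The log2 fold change was 2.02 ± 0.34 on day 14 (adjusted p = 7.68e-07) and -0.02 ± 0.41 on day 42 (adjusted p = 0.97). Fibroblast markers summed to 3772 to 10286 CPM on day 14 and 1867 to 2822 CPM on day 42, and their part in this result was not tested. The gene lies within the body of the gene model Gm20388 on the same strand.

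AU022793, Gm7932 and AI427809 rose and were still higher on day 42. AU022793 (chr15:39962649-39967024, plus strand) had 0.464, 0.845 and 1.02 CPM in CTRL mice, 1.48, 2.86 and 6.19 CPM on day 14 and 1.48, 1.99 and 3.86 CPM on day 42, without overlap with CTRL mice on either day (1.96 ± 0.25 and 1.57 ± 0.28, adjusted p = 5.53e-10 and 1.97e-05). Gm7932 (chr6:48860329-48866083, plus strand), which is protein-coding in RefSeq, had 0.882, 1.18 and 1.53 CPM in CTRL mice, 3.58, 5.20 and 9.56 CPM on day 14 and 1.29, 2.98 and 4.63 CPM on day 42. It did not overlap with CTRL mice on day 14 and did on day 42 (2.24 ± 0.22 and 1.21 ± 0.25, adjusted p = 2.00e-13 and 2.47e-04). AI427809 (chr4:53261356-53270232, minus strand) had 0, 0.299 and 0.477 CPM in CTRL mice, 0.504, 1.55 and 2.31 CPM on day 14 and 0.343, 0.992 and 1.98 CPM on day 42 (2.29 ± 0.32 and 1.88 ± 0.37, adjusted p = 8.67e-09 and 8.03e-05). It was under 1 CPM in every CTRL mouse and could meet the level threshold only through BLEO-IPF mice, which in part fixes its direction. The CTRL median of AU022793 was also under 1 CPM, so the same limit holds in part for AU022793. All 6 markers of monocyte-derived macrophages were also still higher on day 42, beside 13.7% of all genes that rose. Their summed level was 457 to 3377 CPM against 209.7 to 319 CPM in CTRL mice, and their part in these results was not tested.

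**Figure D3:**
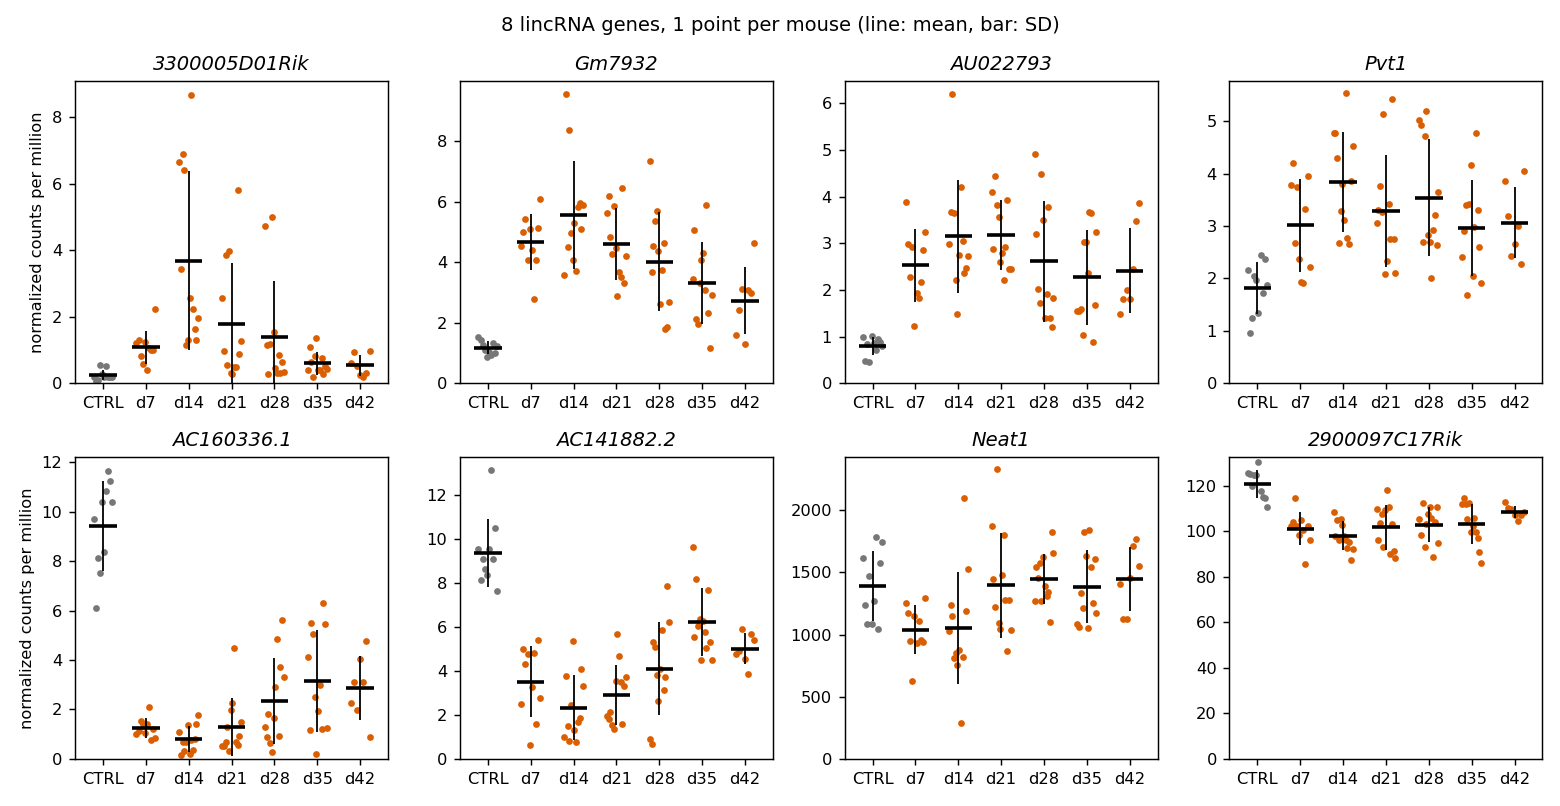
Each point is 1 mouse, with the normalized CPM of 8 lincRNA genes on the vertical axes and CTRL and BLEO-IPF mice by day on the horizontal axis (10 CTRL mice and 7 to 12 mice per day), and lines and bars give the mean and SD. Neat1 had 1 day 14 mouse at 293 CPM, and all day 14 mice lay above all CTRL mice for 3300005D01Rik, Gm7932, AU022793 and Pvt1 and below them for AC160336.1, AC141882.2 and 2900097C17Rik.

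AC160336.1 (chr14:44544055-44637201, minus strand) had the largest decrease on each of the 6 days. It had 6.12, 10.043 and 11.7 CPM in CTRL mice, or 77 to 153 counts per library, 0.159, 0.727 and 1.79 CPM on day 14, or 2 to 21 counts, and 0.869, 3.09 and 4.76 CPM on day 42. No mouse of these days reached the range of CTRL mice. On days 7, 14 and 42 the log2 fold change was -2.91 ± 0.39, -3.53 ± 0.38 and -1.71 ± 0.41 (adjusted p = 3.69e-12 for day 14 and 0.0015 for day 42). Its model is a single block of 93147 bases that overlaps exons of Gm5624 on the same strand and of 4 genes on the opposite strand, so which transcript the reads came from is uncertain.

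AC141882.2, E030044B06Rik, 5330413P13Rik, AC113491.1, Gm15889, 2410004I01Rik and Gm13387 were the other genes with the largest decreases. AC141882.2 (chr17:27235075-27248066, minus strand) had 7.64, 9.07 and 13.1 CPM in CTRL mice, 0.756, 1.75 and 5.37 CPM on day 14 and 3.84, 4.92 and 5.89 CPM on day 42, without overlap with CTRL mice on either day (-1.99 ± 0.27 and -0.90 ± 0.31, adjusted p = 3.72e-09 and 0.025). The day 42 call was lost without the filter on low counts (adjusted p = 0.0504). Gm15889 (chr8:94377872-94380317, plus strand) had 2.60, 5.27 and 8.62 CPM in CTRL mice and 0.758, 1.43 and 2.39 CPM on day 14, also without overlap, and -1.84 ± 0.24 on day 14 (adjusted p = 5.45e-10) and -1.15 ± 0.27 on day 42. E030044B06Rik had 1.56, 2.04 and 3.36 CPM in CTRL mice and 0, 0.572 and 1.59 CPM on day 14 (-1.99 ± 0.35, adjusted p = 1.36e-06), and these ranges met at their edges. On day 14, 5330413P13Rik fell by 1.87 ± 0.25, AC113491.1 by 1.89 ± 0.35 and Gm13387 by 1.25 ± 0.35 on the log2 scale. The decrease of 2410004I01Rik came later, with -0.08 ± 0.19, -0.62 ± 0.19, -1.28 ± 0.19 and -1.07 ± 0.22 on days 7, 14, 35 and 42 (adjusted p = 2.42e-04 for day 42). It had 5.84, 6.53 and 10.8 CPM in CTRL mice and 2.77, 3.17 and 4.57 CPM on day 42, without overlap.

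Among the most abundant genes, AU020206, Gm37494 and 1700020I14Rik also fell early. AU020206 (chr7:75769038-75782099, minus strand) had 112, 141 and 167 CPM in CTRL mice and 61.1, 82.3 and 111 CPM on day 7, without overlap. Its log2 fold change was -0.75 ± 0.11 on day 7 (adjusted p = 3.17e-08), -0.58 ± 0.10 on day 14 and -0.03 ± 0.12 on day 42 (adjusted p = 0.88). Gm37494 had 72.7, 91.1 and 107 CPM in CTRL mice and 33.3, 59.7 and 72.2 CPM on day 14, also without overlap (-0.77 ± 0.10, adjusted p = 1.97e-09), and -0.40 ± 0.12 on day 42. 1700020I14Rik, known as Cyrano, an RNA that directs the decay of a microRNA, had 243, 263 and 297 CPM in CTRL mice and 173, 222 and 249 CPM on day 7 (-0.31 ± 0.08, adjusted p = 6.12e-04). On day 14 it had -0.19 ± 0.07 (adjusted p = 0.017), and the call was lost without day 14 mouse 8 (-0.15, adjusted p = 0.052). Tmem250-ps had 58.4 to 79.1 CPM in CTRL mice and was not called on any day. 1810058I24Rik, protein-coding in RefSeq, rose on day 14 (0.37 ± 0.08, adjusted p = 4.28e-05).

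Day 42 was compared with day 14 directly. Between these days 72 of the 236 genes rose and 16 fell, or 30.5% and 6.78%, beside 15.2% and 18.8% of all genes tested. The median log2 fold change was 0.25, against -0.01 over all genes. The largest rises were those of AC160336.1 (1.82 ± 0.42), Gm49767 (1.39 ± 0.20) and E030044B06Rik (1.38 ± 0.39). The largest falls were those of 3300005D01Rik (-2.74 ± 0.55), 1200007C13Rik (-2.11 ± 0.47) and Zfp469 (-2.04 ± 0.40). Both 3300005D01Rik and 1200007C13Rik could meet the level threshold only through BLEO-IPF mice, those of day 14 among them. This in part fixes the direction of their falls. Gm49767 (chr16:31284424-31291896, minus strand), whose nearest coding gene is the apolipoprotein gene Apod, had 3.33, 4.09 and 5.48 CPM in CTRL mice, 1.01, 2.65 and 3.90 CPM on day 14 and 4.56, 7.22 and 7.96 CPM on day 42. Every day 42 mouse lay above every day 14 mouse. Against CTRL mice it fell on day 14 (-0.71 ± 0.19, adjusted p = 9.19e-04) and rose on day 42 (0.68 ± 0.21, adjusted p = 0.012). 1700018A04Rik, chosen after its values were seen, went the other way, with 0.33 ± 0.15 on day 14 (adjusted p = 0.042) and -0.47 ± 0.18 on day 42 (adjusted p = 0.040). It starts 24 bases from Foxf2, a transcription factor gene of mesenchyme, which had -0.12 ± 0.08 and -0.24 ± 0.09 (adjusted p = 0.19 and 0.046).

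Each lincRNA gene was set beside its nearest protein-coding gene, at a median distance of 4267.5 bases. Of the 236, 67 were divergent from it (transcribed away from each other), 60 lay on the same strand downstream of it, 47 on the same strand upstream of it, 28 were convergent, and 21 and 13 overlapped its body on the opposite and the same strand. The neighbour was tested for 199. On day 14, 116 of these 199 lincRNA genes were called. In 79 pairs both were called, in the same direction in 52 (13 both higher, 39 both lower) and in opposite directions in 27. Of all genes tested, 32.4% rose and 29.9% fell on that day. Over the 199 pairs the log2 fold changes had a Pearson r of 0.28 and a Spearman rho of 0.24. For the 64 divergent pairs they were 0.50 and 0.35, for the 34 pairs with the coding gene downstream 0.50 and 0.41, for the 56 with it upstream 0.17 and 0.26, and for the 21 convergent pairs -0.19 and -0.17. Divergent pairs had no limit on distance, and the 35 that start within 2000 bases of each other had 0.44 and 0.35. The 142 pairs whose lincRNA exons overlap no other gene had 0.22 and 0.19. These are descriptions across genes, which share libraries and cell types and are not independent replicates. The positions were not tested against each other.

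**Figure D4:**
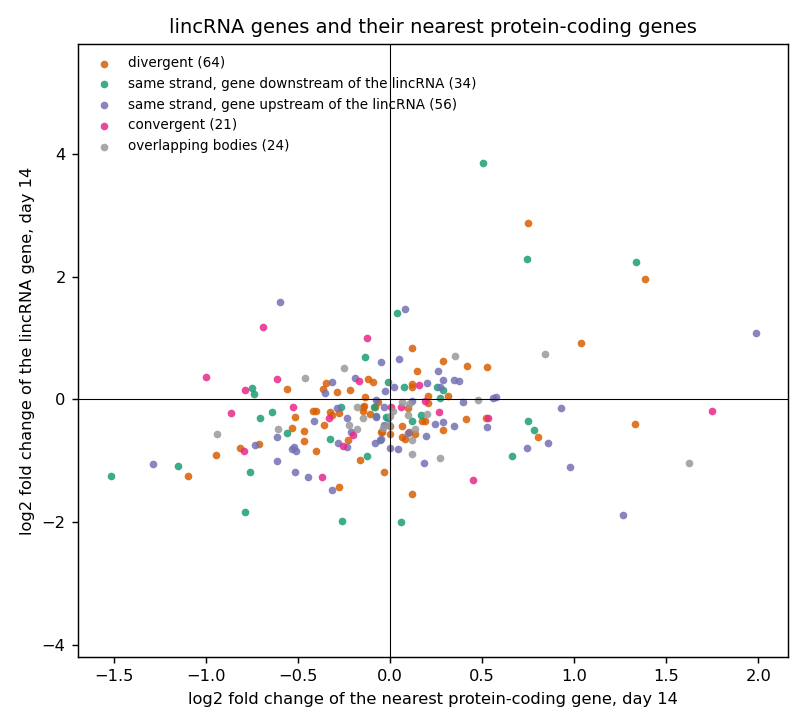
Each point is 1 of the 199 lincRNA genes with a tested neighbour, with the log2 fold change of the nearest protein-coding gene on day 14 on the horizontal axis and that of the lincRNA gene on the vertical axis, colored by position. Pearson's r was 0.50 for divergent pairs at any distance, 0.44 for the 35 that start within 2000 bases, and 0.28 for all pairs.

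Pairs were picked for description after their values were seen. Gm17501 (chr3:145650312-145677580, plus strand) had 1.62, 2.85 and 4.15 CPM in CTRL mice and 2.96, 4.49 and 10.6 CPM on day 14, and rose (0.92 ± 0.20, adjusted p = 4.05e-05). Its partner Ccn1, a secreted matricellular protein, had a median of 137 CPM in CTRL mice and 253 CPM on day 14 (1.04 ± 0.20). Gm20554 (chr13:72626213-72628564, minus strand) had 2.76, 3.81 and 4.27 CPM in CTRL mice and 0.699, 1.64 and 3.77 CPM on day 14, and fell (-0.91 ± 0.18, adjusted p = 1.23e-05). Its partner Irx2, a homeobox gene, had a median of 58.1 CPM in CTRL mice and 28.1 CPM on day 14 (-0.95 ± 0.13). The promoter windows of both lincRNA genes are printed above. AU022793 rose beside Lrp12, a gene of the low density lipoprotein receptor family (1.38 ± 0.15 on day 14), Gm7932 beside the diamine oxidase gene Aoc1 (1.34 ± 0.19), and Gm15889 fell beside Herpud1, a gene of the endoplasmic reticulum stress response (-0.79 ± 0.07).

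Other pairs went in opposite directions. Lockd, downstream of the cell cycle inhibitor gene Cdkn1b, had 0.186, 0.593 and 1.11 CPM in CTRL mice and 0.840, 1.73 and 3.05 CPM on day 14. The CTRL median of Lockd lay under 1 CPM, so BLEO-IPF mice helped it meet the level threshold, which in part fixes its direction. It rose by 1.60 ± 0.26 on the log2 scale (adjusted p = 3.21e-07), whereas Cdkn1b fell by 0.60 ± 0.08. Markers of cycling cells were higher on the same day, as given above, and their part in this result was not tested. AC113491.1 fell beside the adrenergic receptor gene Adra2a, which had 1.26 ± 0.35 (adjusted p = 0.0013).

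In 71 of the 236 genes an exon overlapped that of another gene, with the partner on the same strand in 28 and on the opposite one in 53. How strand and shared reads were counted is not given in the sources used here, so the values of these 71 are uncertain. Among the 165 without such overlap, 22 rose and 77 fell on day 14. The rule takes the mean over all mice, so a gene that was high only after bleomycin could enter, and a gene that fell could drop out. Of the 236 genes, 186 had a mean of at least 1 CPM in every group, 16 were under 1 CPM in CTRL mice and 25 on day 14, whereas 27 lincRNA genes at 1 CPM or more in CTRL mice missed the threshold over all mice. Just above the threshold were 9330158H04Rik, D030034A15Rik and AI427809, each at 1.01 CPM, and just below it Gm44066 at 0.993, Gm12474 at 0.987 and Trp53cor1 at 0.985 CPM.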

How the data were processed

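The authors made directional libraries from RNA of lavaged lung (polyA RNA per the labels), sequenced them single-end and aligned the reads with STAR 2.7.0f to GRCm38 with the Ensembl 96 annotation, as their methods and the submitters' processing notes state. The deposited values are raw counts per gene, without normalization. The counting program is not given in the sources used here. Columns were matched to mice by sample name, and 0 columns were left over.

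Biotypes came from the matching GENCODE annotation, in which all 55536 gene IDs were found. edgeR 4.0.16 in R 4.3.3 (filterByExpr, TMM factors, 1 mean per group over 75 mice, quasi-likelihood F test, Benjamini-Hochberg adjustment) kept 16221 genes. CPM of single mice are on TMM-scaled library sizes, whereas the membership rule and shares use total counts. SEs are those of the fitted log2 fold changes. The steps were tested on simulated counts. DESeq2 1.42.0, other scalings, no filter, only the groups compared, a replicate block, stricter member rules and leaving out single libraries were the alternatives. Within groups, the counts of all 375 pairs of mice differed by more than sampling noise (chi-square per degree of freedom at least 4.11). The labels give no batch. No interval is given for single counts, and the precision of a value is the spread between mice.

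Named were genes of the role lists, the 3 largest increases and decreases of each comparison, the 10 highest levels and the 3 genes on each side of the threshold. Others are marked as chosen after their values were seen. The members, lists and tests were chosen with earlier results of these data known.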

Additional observations from a re-analysis of the deposited data

Results flagged for a closer look

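The 44 named genes were screened for single mice far from their group in CTRL mice and on days 7 and 42, the groups of at most 10 mice. Of 132 such groups, 9 had a mouse whose gap to the nearest other passed Dixon's critical value, and chance alone gives about 1 in 20. On day 7, the highest 1200007C13Rik was 5.81 CPM (next 1.84), the highest Tmem250-ps 84.8 CPM (next 72.6), the lowest Gm7932 2.78 CPM (next 4.08) and the lowest Neat1 626 CPM (next 936). In CTRL mice, the highest 9330158H04Rik was 2.22 CPM (next 1.26) and the lowest Carmn 1.03 CPM (next 1.98). On day 42, the lowest 1700020I14Rik was 214 CPM (next 263), the lowest Meg3 5.61 CPM (next 10.2) and the highest Snhg20 14.1 CPM (next 9.84). All of these mice were kept in the reported fit.

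Tested directly, day 42 differed from day 14 in 72 genes that were higher and 16 that were lower. Gm49767 and 1700018A04Rik were called in opposite directions against CTRL mice on these days, and differed between them by 1.39 and -0.81 on the log2 scale (edgeR adjusted p = 2.55e-07 and 1.64e-04).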

How the results depend on the processing

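No called value of a named gene changed direction under the alternatives run. With genes at 2 CPM or more, those that rose numbered 10, 20 and 18 on days 7, 14 and 21, those that fell 69, 48, 24 and 14 on days 14, 21, 28 and 35, and 10 were lower on day 42 than on day 14. Without genes that overlap exons of another, 43 fell on day 7, 22 rose on day 14, 8 rose on day 35 and 44 were higher on day 42 than on day 14. These subsets hold fewer genes by construction. With a log2 fold change of at least 0.5 in size, 16 fell on day 35. On day 42, 9 fell without the filter on low counts and 35 with only the 2 groups in the fit, and the cause was not tested. Leaving out single libraries was chosen after seeing the data. Without day 14 mouse 8, 33 rose and 98 fell on day 14. Of 965 alternative values for the 147 calls of named genes, 930 stayed past the threshold and 35 did not, 18 of these without the filter on low counts.

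Replicate numbers are shared between groups in the labels, but the numbers did not pair the mice. Over 204 same-numbered pairs, the mean correlation of deviations was 0.0058, and 8 of 75 mice correlated best with their own number. With a replicate block, 33 rose and 108 fell on day 14 and 16 rose and 13 fell on day 42, and 7 calls of named genes were lost.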
